A study of Mus musculus with 10 samples.

Results

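The control hairpin cultures are 4 of the 10 libraries of the series, chosen by their label alone: shCTR replicates 1, 2, 5 and 6, which carry a non-targeting scramble short hairpin delivered by lentivirus. The cells came from the adult olfactory epithelium of C57BL6 mice, collected 9 days after methimazole, a drug that strips this epithelium and sets off its regrowth. After digestion with enzymes they grew attached to gelatin-coated plastic in NeuroCult proliferation medium with EGF, FGF2 and heparin. The cultures had thus all been lesioned in the animal, dissociated and transduced, and no untransduced culture or intact tissue is described here. The labels give 4 control libraries where the design text gives 3 replicates per treatment, and they do not say whether replicates came from separate animals or dishes or from pooled animals. The spread between libraries may therefore be technical in part. With 1 group there is no comparison of conditions, and every value is a description of these 4 libraries.

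The olfactory epithelium lines the back of the nasal cavity. Its sensory neurons are replaced throughout life by 2 kinds of basal stem cell: horizontal basal cells, which rest on the basement membrane and are marked by keratins 5 and 14 and the transcription factor p63, and globose basal cells, which divide often and make neurons through factors such as Neurog1. Sustentacular cells and Bowman glands support the neurons, and the lamina propria beneath holds fibroblasts, vessels, immune cells and the ensheathing glia that wrap olfactory axons. A dissociated culture can hold cells of both layers.

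Gene counts ran from 22763014 to 35414943 per library. The libraries differed in background. The share of reads left unmapped was 21.7, 19.6, 14 and 9.83 percent in shCTR 1, 2, 5 and 6, the order kept for each set of 4 values below, and the forward strand, opposite to transcription in this kit, held 10.4, 8.68, 6.34 and 7.6 percent of the stranded gene counts. The 1358 protein-coding olfactory, vomeronasal and trace amine receptor genes, which few cells other than sensory neurons express, summed to 61.5, 57, 33.6 and 17.3 CPM (a gene's counts over the scaled library size, in parts per 1000000) on the sense strand and 102, 88.2, 59.1 and 29.3 CPM on the opposite strand. Of these receptor genes, 95% lay at or under 0.158, 0.15, 0.107 and 0.0576 CPM, which serves below as the level of a gene that is not expressed. Xist, made from the inactive X of female cells, measured 579, 272, 304 and 339 CPM, and the labels do not state the sex of the animals.

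11920 of 21384 protein-coding entries (55.7%) reached 1 CPM in every control library, 1711 reached 100 CPM and 41 reached 1000 CPM. Levels of different genes were compared per length, as transcript shares (TPM) made from the same counts and the summed length of each gene's exons, and ranks are places among the protein-coding entries on that scale. The leading entry, Gm10800, is not an ordinary gene. This model on chromosome 2 (98666547 to 98667301, GRCm38/mm10) consists of satellite-like repeat sequence, as do Gm10801 beside it, Gm21738 on chromosome 14 and Gm10718 and Gm10722 on chromosome 9, which all rank among the first 20. Gm10800 alone took 10.4, 8.34, 4.14 and 1.96 percent of gene counts, and the 5 models together took 12, 9.58, 4.78 and 2.26 percent. They were high in shCTR 1 and 2, lower in shCTR 5 and lowest in shCTR 6, the order of the unmapped reads. The part of the background in these counts was not tested. Reads that mapped to several places were set apart as multimapping and left out. Because the 5 models share sequence, their counts may lack some of their reads. The stretches below, all annotated as coding sequence in GENCODE M21, show the likeness of 3 of the models. Capitals mark the 42 bases that are the longest run common to all 5 models, and between 27.7 and 41.9% of the 20-base words of the other 4 models also occur in Gm10800.
Gm10800, bases 1 to 180: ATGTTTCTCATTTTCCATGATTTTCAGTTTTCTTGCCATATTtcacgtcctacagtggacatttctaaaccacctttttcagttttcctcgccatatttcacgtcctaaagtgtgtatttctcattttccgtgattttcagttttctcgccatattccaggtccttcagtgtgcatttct
Gm10801, bases 29 to 208: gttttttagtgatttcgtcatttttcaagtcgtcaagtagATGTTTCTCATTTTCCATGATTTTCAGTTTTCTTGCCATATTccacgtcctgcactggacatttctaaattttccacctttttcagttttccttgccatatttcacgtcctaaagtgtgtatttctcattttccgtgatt
Gm21738, bases 191 to 370: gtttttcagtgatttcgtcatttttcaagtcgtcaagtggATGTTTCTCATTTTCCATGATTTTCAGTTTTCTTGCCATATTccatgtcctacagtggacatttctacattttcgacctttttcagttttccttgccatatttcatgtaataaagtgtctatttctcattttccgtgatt

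Without these models, the messenger RNA with the highest level per length was Spp1, which encodes osteopontin, a secreted matrix phosphoprotein (ENSMUSG00000029304, chromosome 5, 104435118 to 104441050). It measured 8429.5, 8809.9, 12478 and 27504 CPM, 0.802, 0.773, 1.27 and 2.7 percent of all gene counts. The level was close in shCTR 1 and 2, higher in shCTR 5 and highest in shCTR 6. B2m, the light chain of MHC class I, followed with 2291, 2446, 2465 and 1572 CPM, lowest in shCTR 6. The other 13 of the first 20 fall into a few kinds. Translation and cytoskeleton were represented by Eef1a1 (5282 ± 588 CPM, mean ± SD, n = 4), Rplp1, a ribosomal stalk protein (774 ± 99.7 CPM), Actb, beta-actin (3636 ± 515 CPM), and gelsolin, Gsn (3092 ± 513 CPM). Small calcium- or sugar-binding proteins were S100a6 (2590.5 ± 460.1 CPM), S100a4 (753 ± 241 CPM), galectin 1, Lgals1 (1602 ± 82.1 CPM), and annexin A1, Anxa1 (2323 ± 777 CPM). Of these Lgals1 varied least, at 1597, 1712, 1513 and 1587 CPM. Matrix products were the protease stromelysin 1, Mmp3, and matrix Gla protein, Mgp, an inhibitor of calcification. Mmp3 measured 1771, 6321, 1404 and 3215 CPM, highest in shCTR 2, and Mgp 1331, 2321, 1328 and 2313 CPM, nearly equal in shCTR 2 and 6. The list closes with Crabp1, a retinoic acid-binding protein (1024 ± 228 CPM), Ctsd, the lysosomal protease cathepsin D (2687 ± 891 CPM, highest in shCTR 6), and Ifitm3, an interferon-induced membrane protein (620.3 ± 105 CPM).

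**Figure D1:**
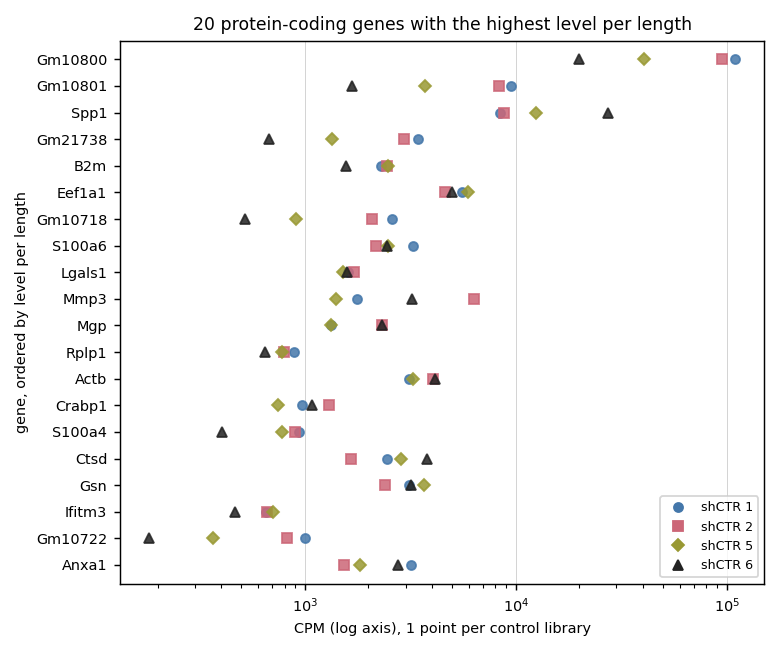
CPM on a log axis (1 point per control library) of the 20 protein-coding entries with the highest level per length, in that order from the top. The 5 Gm models are highest in shCTR 1 and lowest in shCTR 6, over more than a 4-fold range, Spp1 is highest in shCTR 6, and most of the others lie close together.

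Among entries that do not encode proteins, the leaders were small structural RNAs, the nuclear long RNA Malat1 and a gene model whose nature was not examined. Rn7sk, the 7SK RNA that restrains transcription elongation, measured 19750.2, 24866, 17703 and 17911 CPM. Rpph1, the RNA of ribonuclease P, measured 10049, 9252, 6752 and 6637 CPM and Rmrp, that of ribonuclease MRP, 2636, 2268, 1794 and 2068 CPM. All 3 were higher in shCTR 1 and 2 than in shCTR 5 and 6. Malat1, a nuclear speckle RNA, went the other way with 4461, 4516, 5508 and 11129 CPM, highest in shCTR 6. The fifth was the gene model Gm26917 at 1270.2 ± 226 CPM. Together Rn7sk, Rpph1, Rmrp and Malat1 took 3.51, 3.59, 3.23 and 3.7 percent of gene counts. A total RNA kit was used, and such kits keep transcripts without a poly(A) tail.

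Cell identity was read from 19 marker lists with 243 different measured genes, of which 115 reached 1 CPM in every control library. The share over all protein-coding entries was 55.7%. In bulk RNA, fewer cells of a type and less RNA per cell cannot be told apart, so no share of cells is given. By summed CPM fibroblast markers led in shCTR 1, 2 and 5. In shCTR 6 they came after the bone and cartilage list, which holds Spp1. These sums are divided neither by length nor by the number of markers, and the fibroblast list is the longest of the 19. Of the 22 markers 21 reached 1 CPM in every library, and they summed to 18715, 42966, 14106 and 13172 CPM. By sum shCTR 2 held the most, and shCTR 6 the least, close under shCTR 5. Of the 22 markers 18 were highest in shCTR 2, but the lowest library varied. It was shCTR 6 for 9 markers, shCTR 5 for 6, shCTR 1 for 5 and shCTR 2 for 2. The defining markers were all high: Pdgfra, the PDGF receptor of fibroblasts, measured 1373, 3859.5, 1078 and 839 CPM, Col1a1, a chain of type I collagen, 357, 1861, 295 and 207 CPM, and Dcn, the proteoglycan decorin, 933, 3732, 431 and 357 CPM. The first and the last rank 183 and 126 by level per length. Other members near the top were Vim, the intermediate filament vimentin (rank 28), and Col3a1, type III collagen (rank 47). Postn, the matrix protein periostin, ranged widely, with 2816, 4694, 1145 and 115 CPM. It was far lower in shCTR 6 than in the other 3 libraries. A single fibroblast marker was at background, Tcf21, a transcription factor of visceral and cardiac fibroblasts (0.0396, 0, 0 and 0.0288 CPM).

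A second identity was epithelial. Of 16 general epithelial genes 15 reached 1 CPM in every library, and their sum was 1295, 185, 1289 and 2239 CPM. In shCTR 2 every one of the 16 was at its lowest, and in shCTR 6 15 were at their highest. Among all protein-coding genes averaging 5 CPM or more, 2199 had a highest to lowest ratio (CPM + 1) over 2. Of these, 854 were lowest in shCTR 2 and 736 highest in shCTR 6. The keratins of simple epithelia were the most abundant. Krt18 (rank 65) measured 494, 47.5, 460 and 788 CPM and its partner Krt8 (rank 113) 409.8, 52.4, 395 and 703 CPM. Adhesion genes were likewise lowest in shCTR 2: Epcam, an epithelial adhesion molecule, measured 89.8, 13.3, 70.2 and 84 CPM, Cdh1, E-cadherin, 43.1, 7.21, 59.2 and 124 CPM, and the tight junction gene Cldn4 81.6, 19.9, 93.9 and 160.3 CPM. Epcam was the 1 gene of the list that was highest in shCTR 1. Regulators of epithelial identity were low but above background, as for the splicing factor gene Esrp1 (5.78, 1.6, 10.6 and 17 CPM) and the transcription factor gene Grhl2 (8.28, 1.9, 10.4 and 14.5 CPM). The gene short of 1 CPM was Ovol1, another such factor, at 0.594, 0.25, 1.07 and 1.93 CPM.

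**Figure D2:**
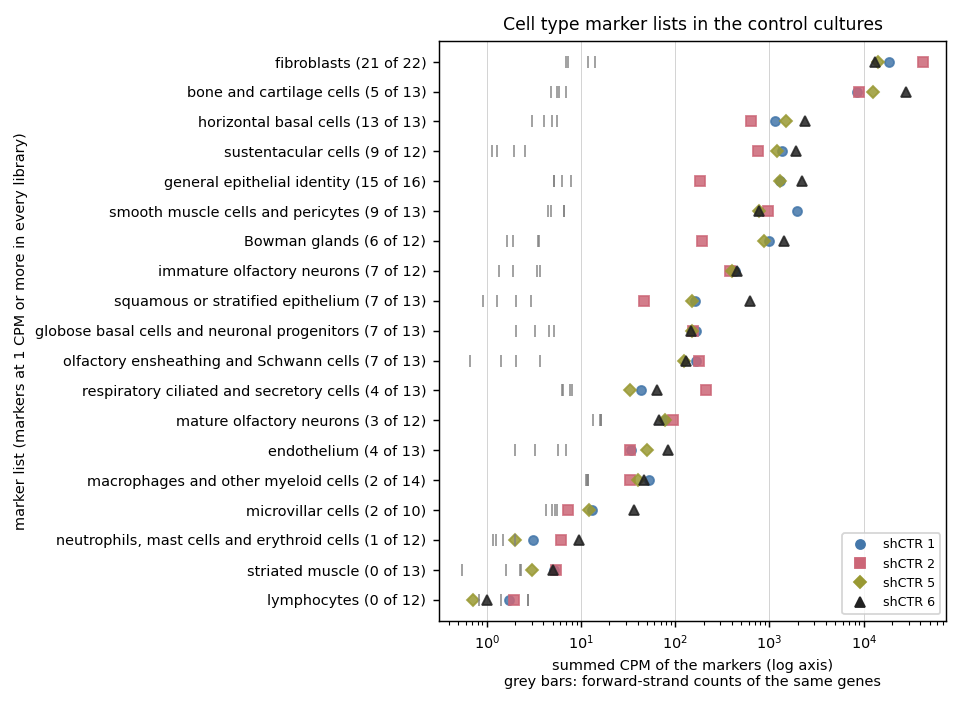
Summed CPM (log axis) of the 19 cell type marker lists in each control library, with the count of markers at 1 CPM or more in every library and, as grey ticks (1 per library), the summed forward-strand CPM of the same genes. Fibroblast markers summed highest except in shCTR 6, where the bone and cartilage list with Spp1 did, and lymphocyte markers lay near their forward-strand level.

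Among the epithelial cell types of the nose, markers of horizontal basal cells were the most complete. 13 of 13 reached 1 CPM in every library, with sums of 1149, 641, 1511 and 2398 CPM. The basal keratins Krt5 and Krt14 measured 50.05, 8.37, 50.4 and 336 CPM and 173, 40.8, 116 and 441 CPM, and Trp63, which encodes p63, 2.77, 2.05, 2.7 and 6.25 CPM. All 3 were lowest in shCTR 2 and highest in shCTR 6. Krt17, a keratin of activated basal cells, measured 177, 36, 204 and 566 CPM, and Itga6, the integrin by which basal cells hold to the basement membrane, 65.1, 9.57, 177 and 155 CPM. Icam1 and Egfr, which fibroblasts also express, did not share this order: Icam1 measured 163, 245, 205 and 137 CPM and Egfr 125, 191, 161 and 180.4 CPM, both highest in shCTR 2. Trp63 ranked 12139 by level per length and Krt14 264. Perp, a desmosome gene and p53 and p63 target, measured 329, 83.2, 465 and 361 CPM, and the hemidesmosome gene Col17a1 2.1, 1.7, 2.81 and 19.7 CPM.

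Markers of stratified epithelium were led by shCTR 6 as well. They summed to 161, 47, 151 and 619 CPM, with 12 of 13 highest in shCTR 6. Krt6a, a keratin of wounded and stratified epithelia, measured 91.2, 21.4, 60.4 and 244 CPM, the desmosome gene Dsp 27.8, 10.6, 48.8 and 179.9 CPM and the defining markers Krt13 and Ivl 2.89, 0.651, 2.85 and 37.9 CPM and 3.6, 0.301, 6.05 and 23.3 CPM. The third defining marker, Krt10 of keratinising skin, stayed at 2.22, 2.96, 1.67 and 2.22 CPM, and Krt1, its partner, was under 1 CPM in each library.

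Markers of the differentiated epithelial cells of the nose were found in part. Of 12 sustentacular markers 9 reached 1 CPM in every library, among them genes that other epithelia share, such as Krt8 and Krt18. The defining marker Cyp2g1, a cytochrome P450 specific to the olfactory mucosa, measured 0.277, 0.10, 0.356 and 0.518 CPM, Cyp1a2 0.119, 0.10, 0.0712 and 0 CPM and Ermn 1.19, 0.15, 1.6 and 0.346 CPM. Sult1c1, a sulfotransferase, was present at 76.8, 3.56, 46.2 and 37.7 CPM and lowest in shCTR 2. Reg3g, an antimicrobial lectin induced in injured epithelium, ran the other way at 9.62, 196, 6.16 and 2.13 CPM, with shCTR 2 far above the rest. Of 12 Bowman gland markers 6 reached 1 CPM in every library, and 6, Bpifb9a, Bpifb9b, Muc5b, Dcpp1, Obp2a and Gpx6, were under 1 CPM in each. Sox9 measured 32.8, 21.3, 36.2 and 51.1 CPM and the water channel Aqp5 54.9, 7.76, 62.7 and 96.7 CPM, whereas Bpifb9b, a secreted protein of the gland, had no count in 3 libraries and 0.0576 CPM in shCTR 6. A count of 0 allows up to 3 counts, or 0.119, 0.15, 0.107 and 0.0864 CPM, by counting error alone. Ltf, lactoferrin, measured 337, 96.7, 237 and 373 CPM. The ciliated cell factor Foxj1 was low, at 3.96, 0.601, 5.16 and 12.9 CPM, and the axonemal dyneins Dnah5 and Dnah9 stayed between 0.95 and 1.41 CPM. Scgb1a1, the club cell secretoglobin, was detected in shCTR 6 alone, at 0.0288 CPM, and the microvillar cell markers Ascl3, Foxi1 and Trpm5 were under 1 CPM in each library.

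Of the neuronal markers 3 of 12 mature and 7 of 12 immature ones reached 1 CPM in every library. For the immature markers this is near the share of all protein-coding entries (55.7%), and the other 5 were under 1 CPM in each library. Omp, the olfactory marker protein of mature neurons, measured 0.356, 0.601, 0.463 and 0.605 CPM, and Cnga2, a subunit of their transduction channel, 0.158, 0.25, 0.0356 and 0.0576 CPM. Adcy3, the adenylyl cyclase of the same pathway, was higher at 41.9, 58, 38.9 and 32.3 CPM, and with Ric8b and Gnal it made up the 3 of 12 mature neuron markers at 1 CPM or more, while 9 were under 1 CPM in each library. Of the immature neuron markers Dcx, doublecortin, measured 0.238, 0.601, 0.178 and 0.144 CPM. Gap43, a growth cone protein that glia and other cells can express, measured 4.87, 50.3, 7.3 and 15 CPM and was highest in shCTR 2. Dpysl3 carried most of that list's sum, at 328, 264, 294 and 284 CPM. Ncam1, a neural adhesion molecule, measured 60.1, 39.3, 61 and 77.5 CPM, Tubb3, neuronal tubulin, 10.7, 7.06, 10.3 and 30.8 CPM, and Crmp1, a growth cone protein, 13.6, 11.1, 22.8 and 32.9 CPM, all lowest in shCTR 2 and highest in shCTR 6. The defining marker Gng8, a G protein subunit, measured 3.96, 5.76, 3.27 and 6.59 CPM. Gnal, the G protein subunit of the pathway, measured 2.3, 1.6, 2.03 and 1.7 CPM, with more counts on the opposite strand. Neurog1, a neurogenic factor of globose basal cells, was near the level of the receptor genes, at 0.0396, 0.15, 0 and 0 CPM. Kit, a receptor tyrosine kinase of these cells, reached 5.27 CPM in shCTR 6 and at most 1.25 CPM in the others. Sox2 and Pax6, which horizontal basal and sustentacular cells share with progenitors, were low but present at 7.09, 2.4, 8.76 and 15 CPM and 6.37, 2.86, 6.98 and 10.5 CPM.

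Glial, muscle, skeletal, vascular and blood lineages were read in the same way. Of 13 ensheathing and Schwann cell markers 7 reached 1 CPM in every library, near the share of all protein-coding entries (55.7%). Sox10, the glial master regulator, measured 1.78, 0.751, 3.7 and 3.6 CPM. S100b, a calcium-binding protein of glia, measured 29.1, 2.81, 15.2 and 16 CPM, lowest in shCTR 2. Of the 13 markers 9 were lowest in shCTR 2 and 3 highest there, among them Frzb (95.7, 145, 53.8 and 47.2 CPM). The list sum was also highest in shCTR 2, at 167, 178, 123 and 131 CPM. Of the pericyte and smooth muscle markers Rgs5 was abundant at 1258, 105, 465 and 479 CPM, most of all in shCTR 1. Acta2, smooth muscle actin, measured 368, 468, 109 and 23.7 CPM and Tagln, transgelin, 184, 301, 48.9 and 24.2 CPM. Both ran from shCTR 2, the highest, through shCTR 1 and 5 to shCTR 6, the lowest. Other members ran the other way, lowest in shCTR 2 and highest in shCTR 6. Mcam measured 45.4, 15.8, 63.5 and 116 CPM, Cspg4 32.2, 7.56, 33.7 and 68.8 CPM and Notch3 37.2, 22.2, 48.7 and 60.4 CPM. Of the 13 markers 7 were highest in shCTR 2 and 4 in shCTR 6. Myh11, the myosin of mature smooth muscle, measured 2.14, 5.56, 1.53 and 1.96 CPM, and Des and Myocd were under 1 CPM in each library. No striated muscle marker reached 1 CPM in every library. Bone and cartilage markers summed high through Spp1. Dmp1, an acidic phosphoprotein of osteocytes and tooth-forming cells, measured 13.5, 9.67, 48.3 and 627 CPM and stood out in shCTR 6. The osteoblast factor Sp7 measured 0.238, 0.10, 0.0356 and 0.23 CPM and Acan, the cartilage proteoglycan aggrecan, 0.475, 0.15, 0.214 and 0.0864 CPM, while Col2a1, type II collagen, was at 3.64, 1.8, 10.7 and 36 CPM.

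Of the endothelial markers 4 of 13 and of the myeloid markers 2 of 14 reached 1 CPM in every library. Pecam1 measured 1.86, 1.2, 2.1 and 1.67 CPM and Kdr 0.713, 1.2, 0.783 and 0.662 CPM. Cdh5, the third defining endothelial marker, measured 2.22, 7.51, 4.09 and 42.6 CPM, highest in shCTR 6. Flt1, a VEGF receptor, measured 9.03, 5.26, 30.04 and 28.9 CPM. Ptprc, the pan-leukocyte antigen CD45, measured 1.58, 0.852, 0.747 and 0.662 CPM, and the macrophage genes Adgre1 and Csf1r 0.634, 0.301, 0.712 and 0.259 CPM and 0.594, 0.501, 0.214 and 0.144 CPM. Cd14, which fibroblasts can express, was the only myeloid marker over 20 CPM, at 36.5, 26.2, 27.4 and 32.4 CPM. None of the 12 lymphocyte markers reached 1 CPM in any library. The lymphocyte list summed to 1.74, 1.95, 0.712 and 1.01 CPM, against 2.77, 2.76, 1.42 and 0.835 CPM on the opposite strand.

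Some transcription factors of the head were expressed, and Hox genes of the trunk were nearly absent. Of 23 factors of the facial mesenchyme and neural crest 14 reached 1 CPM in every library, near the share of all protein-coding entries (55.7%). Alx1 and Alx4, homeobox genes of the facial midline, measured 114, 70.6, 62.9 and 43.5 CPM and 54.1, 56, 55.4 and 56 CPM. Pax9 and Pax3, paired box genes of facial mesenchyme and crest, measured 172, 141, 95.9 and 35.6 CPM and 50.1, 66.6, 28.6 and 33.9 CPM. Alx4 was level across libraries, while Pax9 was lowest in shCTR 6. Tfap2b measured 195, 20.6, 79.3 and 87.3 CPM, lowest in shCTR 2, and Msx1 11.8, 76.4, 5.37 and 7.17 CPM, highest there. Foxf1, a mesenchymal forkhead factor, was likewise highest in shCTR 2, at 0.792, 11.2, 0.463 and 0.461 CPM, and Six2 lowest there, at 10.02, 1.2, 6.83 and 6.91 CPM. The 4 genes Dlx1, Dlx2, Dlx5 and Dlx6 of the jaw arches stayed under 1 CPM except for Dlx1 in shCTR 6 (3.46 CPM). Of 26 Hox genes, which mark the trunk and hindbrain, 25 were under 1 CPM in each library. The exception was Hoxd8, at 0.634, 10.2, 0.392 and 1.12 CPM, which passed 10 CPM in shCTR 2. The Hox list summed to 6.06, 16.8, 3.88 and 2.45 CPM, against 5.94, 5.16, 3.35 and 1.18 CPM on the opposite strand.

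Factors of the olfactory placode, the embryonic source of the epithelium, were in part present. Six4 measured 80.8, 47.4, 82.3 and 89 CPM, lowest in shCTR 2. Otx2, a head patterning factor, measured 8.83, 1.55, 7.22 and 8.03 CPM, whereas Lhx2, needed for olfactory neurons, was at 0.238, 0.15, 0.0356 and 0.0288 CPM. Ebf1, made by olfactory neurons and by mesenchyme, measured 29.9, 77.2, 33.3 and 28 CPM and was highest in shCTR 2. Gata3 stood out in the same library, at 0.673, 10.7, 0.463 and 0.547 CPM.

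Mesenchymal regulators were nearly all on, with 21 of 23 at 1 CPM or more in every library, against 55.7% of all protein-coding entries. The Hippo pathway effectors Wwtr1, which encodes TAZ, and Yap1 measured 308, 275, 489 and 685 CPM and 214, 235, 235 and 243 CPM. Prrx1, a limb and face mesenchyme factor, measured 558, 1064, 332 and 203 CPM and Twist1 55, 76.6, 39 and 40.02 CPM. Of the repressors that silence epithelial genes Zeb1 measured 111, 121, 92.1 and 112 CPM, Zeb2 112, 126, 131 and 159 CPM, Snai2 24.2, 17.7, 24.1 and 28.4 CPM and Snai1 10.1, 16.2, 4.45 and 4.64 CPM. The library shCTR 2, lowest in epithelial genes, was highest for Snai1 and Zeb1 and lowest for Snai2, and Zeb2 was highest in shCTR 6. The ratio of the highest to the lowest library was 3.16 for Snai1, 1.57 for Snai2, 1.41 for Zeb2 and 1.31 for Zeb1. Wwtr1 was also highest in shCTR 6 and Prrx1 in shCTR 2. Osr2 was highest in shCTR 2 too, with 27.5, 50.8, 7.4 and 9.59 CPM. Tcf4, an abundant partner of many of these factors, measured 493 ± 44 CPM, and Klf4, which is made by epithelia as well, 44.4, 34.4, 79.4 and 94.4 CPM.

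Receptors for the growth factors of the medium were expressed, with 12 of 14 genes at 1 CPM or more in every library. The share over all protein-coding entries was 55.7%. Egfr ranked 3384, and Fgfr1, the main FGF2 receptor of mesenchyme, measured 243, 266, 287 and 389.6 CPM (rank 1496). Of the heparan sulfate proteoglycans, which help FGF2 bind, Gpc1, glypican 1, ranked 2208 and Sdc4, syndecan 4, ranked highest, with 442, 780.3, 531 and 408 CPM (rank 122). Fgfr2, more typical of epithelium, measured 21.8, 42.7, 17.9 and 9.1 CPM, and Fgfr4 was at 0.158, 0.20, 0.142 and 0.0288 CPM. All 17 ERK response genes reached 1 CPM in every library, and 14 of 17 were highest in shCTR 6 and 12 lowest in shCTR 2. Of the 2199 genes with a ratio over 2, 736 were highest in shCTR 6 and 854 lowest in shCTR 2. Dusp6, a phosphatase that limits ERK, measured 181, 112, 368 and 569 CPM, Fosl1, an AP-1 subunit, 6.49, 2.55, 17.5 and 21.9 CPM, and Hmga2, a chromatin protein of growing mesenchyme and of ERK-driven cells, 113, 31.6, 265 and 314 CPM.

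Genes of cell division were expressed throughout. Of 30 mitosis genes 30 reached 1 CPM in every library, against 55.7% of all protein-coding entries, and 29 were lowest in shCTR 2 and 23 highest in shCTR 1. Mki67, a marker of cycling cells, measured 72.9, 25, 48.6 and 37.2 CPM and Top2a, topoisomerase II alpha, 143, 55.4, 115 and 69.7 CPM. The median ratio of the highest to the lowest library was 2.76 for mitosis genes and 1.63 for the 30 S phase genes, of which 20 were highest in shCTR 5. Pcna, the replication clamp, measured 52.3, 43.6, 58.4 and 51.2 CPM and Mcm6, a helicase subunit, 44.5, 39.7, 69.5 and 35.4 CPM. Several inhibitors of the cell cycle ranked above these genes. Cdkn2b and Cdkn2a, which encode p15 and p16/p19, ranked 247 and 308 and measured 141, 118, 196 and 217 CPM and 128, 90.2, 137 and 139 CPM. Cdkn1c, the imprinted inhibitor p57, measured 59, 165, 36.9 and 16.8 CPM, highest in shCTR 2. Cdkn1a, which encodes p21, measured 227, 149.9, 236 and 280.5 CPM and was lowest there. Targets of p53 ranked high as a list, with a median rank of 698. Ccng1, cyclin G1, measured 2449.5, 1232, 2706 and 1691 CPM (rank 29), Trp53inp1 1467, 545, 1662 and 1572 CPM and Mdm2, which degrades p53, 451, 231, 975 and 955 CPM. Plk2 and the death gene Pmaip1 measured 555, 173, 703 and 811 CPM and 145, 52.5, 205 and 257 CPM. In 17 of 20 p53 targets shCTR 2 was lowest. Of all 2199 protein-coding genes averaging 5 CPM or more with a ratio over 2, 854 were lowest in shCTR 2. In the same set 237 were highest in shCTR 1 and 234 in shCTR 5. The counts of the lists also include genes with smaller ratios.

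All 25 interferon-stimulated genes reached 1 CPM in every library, against 55.7% of all protein-coding entries. 17 of 25 were highest in shCTR 5 and 21 lowest in shCTR 6. Of the 2199 genes with a ratio over 2, 234 were highest in shCTR 5 and 805 lowest in shCTR 6. Ifit1, which binds foreign RNA, measured 238, 193, 306 and 133 CPM, Isg15, a ubiquitin-like protein, 53.6, 53, 86 and 39.8 CPM, and Irf7, an interferon regulatory factor, 137, 131, 168 and 43.1 CPM. The MHC class I genes H2-D1 and H2-K1, at 919, 1153, 922 and 476 CPM and 1095, 1079.7, 1074 and 491 CPM, were also lowest in shCTR 6. Rsad2, viperin, was an exception at 12.3, 33.2, 33.7 and 38.9 CPM, lowest in shCTR 1.

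The endoplasmic reticulum chaperones Hspa5 and Calr measured 995, 1549, 1055 and 930 CPM and 828, 1397, 844 and 902 CPM, both highest in shCTR 2, whereas Ddit3, the stress factor CHOP, measured 32.8, 39.4, 38.5 and 50.1 CPM. Atf4, the factor upstream of Ddit3, measured 206 ± 19 CPM. Polycomb genes, which include the targets of the series' other hairpins, had a median ratio of the highest to the lowest library of 1.34 and 2 of 27 genes over 2, against 1.43 and 20.3% over all protein-coding genes averaging 5 CPM or more. Bmi1, a subunit of PRC1, measured 127, 117, 112 and 112 CPM, and Ezh2, the methylase of PRC2, 15.2, 13.2, 16.8 and 17.1 CPM. Cbx7 and Cbx8, the PRC1 chromodomain genes, measured 17.7, 16.4, 13.5 and 5.3 CPM and 12.4, 15.9, 10.2 and 10.8 CPM, and Cbx7 was lowest in shCTR 6.

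Of the secreted factors Cxcl5, a neutrophil chemokine, ranked 36. It measured 882, 2544, 836 and 51.7 CPM, so that shCTR 6 lay far under the others. The Wnt inhibitor Sfrp1 measured 269, 1341, 113 and 78.3 CPM, highest in shCTR 2, and Grem1, the BMP antagonist gremlin, 152, 208, 417 and 545 CPM, highest in shCTR 6. The monocyte chemokine Ccl2 measured 130.1, 380, 289 and 249 CPM, and Il6, interleukin 6, 7.48, 32.9, 3.52 and 1.58 CPM, both highest in shCTR 2. Hgf and Fgf7, mesenchymal growth factors that act on epithelium, measured 227, 284, 94.8 and 28.6 CPM and 169, 321, 138 and 66.2 CPM. They too were highest in shCTR 2 and lowest in shCTR 6. EGF family ligands were highest in shCTR 6 instead: Areg measured 19.5, 3.96, 38.2 and 40.9 CPM, Hbegf 21.2, 9.32, 37.3 and 60.5 CPM and Ereg 36.6, 51, 63.5 and 108 CPM.

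Cytoskeletal genes were abundant. Of 29 genes 8 had a ratio over 2, with a median ratio of 1.53, against 20.3% and 1.43 over all protein-coding genes averaging 5 CPM or more. Tmsb4x, an actin-sequestering peptide, measured 869.8, 840.3, 797 and 1029 CPM, and Flna, filamin A, 2267, 2556, 2213 and 2451 CPM. Contractile genes of smooth muscle were among those over 2. Myl9, a regulatory myosin light chain, measured 165, 242, 38.8 and 14 CPM and Cnn1, calponin, 3.17, 15.7, 1.07 and 0.173 CPM, highest in shCTR 2 and lowest in shCTR 6 as for Acta2. Nes, the progenitor filament nestin, ran in the reverse order at 50.01, 16.7, 71.1 and 104 CPM.

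**Figure D3:**
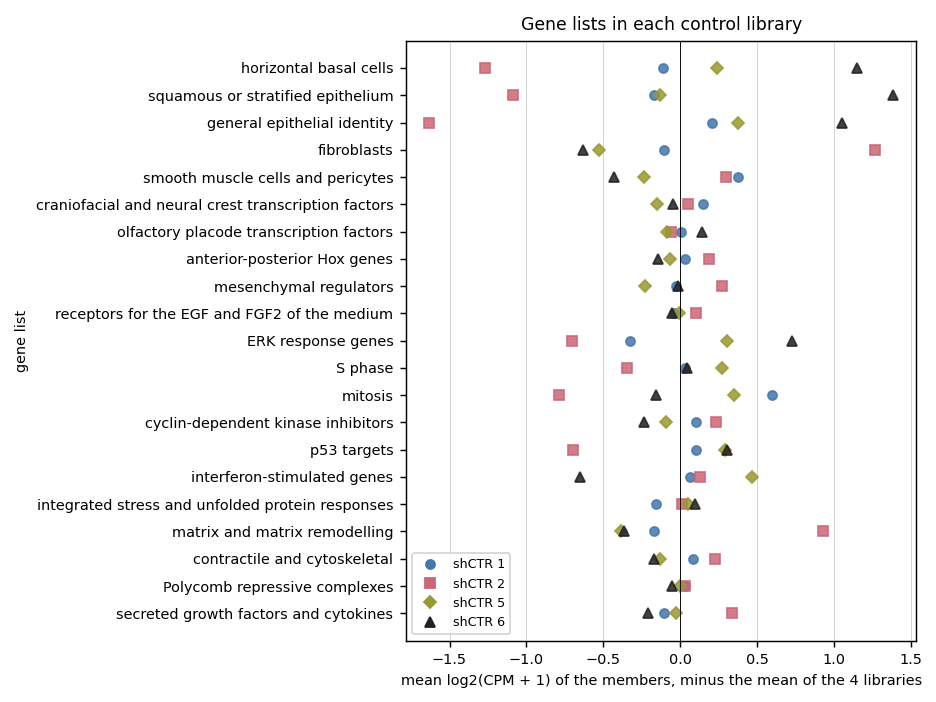
Mean log2(CPM + 1) of the members of 21 gene lists in each control library, relative to the mean of the 4 libraries. The library shCTR 2 is lowest for epithelial, ERK, mitosis and p53 lists and highest for fibroblast and matrix lists, shCTR 6 is highest for the 3 epithelial lists plotted (horizontal basal cells, stratified epithelium and general epithelial identity) and lowest for interferon-stimulated genes, and the Polycomb points nearly coincide.

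Spread among the libraries was measured in 3 ways. The common biological coefficient of variation estimated by edgeR, the spread beyond counting error, was 0.34 over 13910 genes, and fell to 0.266 without shCTR 2. Over the 10807 protein-coding genes whose mean was 5 CPM or more, the median coefficient of variation of CPM was 16.7%, where counting alone would give 3.09% at the median. For 2625 of these genes (24.3%) it was under 10%. The ratio of the highest to the lowest library, with 1 CPM added to each, had a median of 1.43. It was over 2 for 2199 genes (20.3%), over 4 for 687 (6.36%) and over 10 for 174 (1.61%).

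The highest library was most often shCTR 2. Of the 687 genes with a ratio over 4, 376 were highest in shCTR 2, 227 in shCTR 6, 50 in shCTR 1 and 34 in shCTR 5. In 264 of them shCTR 2 was highest and shCTR 6 lowest, and in 206 the reverse. Without shCTR 2 the count was 179, without shCTR 6 it was 390, and without shCTR 1 or 5 it was 647 or 653. Correlations of log2(CPM + 1) over the 11920 detected protein-coding genes, which are not independent, were 0.892 for shCTR 2 and 6, the lowest, 0.978 for shCTR 1 and 5, the highest, and 0.972 for shCTR 5 and 6. The first principal component held 72.9% of the variance, with shCTR 2 at 55, shCTR 1 at 5.25, shCTR 5 at -18.7 and shCTR 6 at -41.5. The unmapped share was 21.7, 19.6, 14 and 9.83 percent in shCTR 1, 2, 5 and 6, and its relation to this component was not tested.

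**Figure D4:**
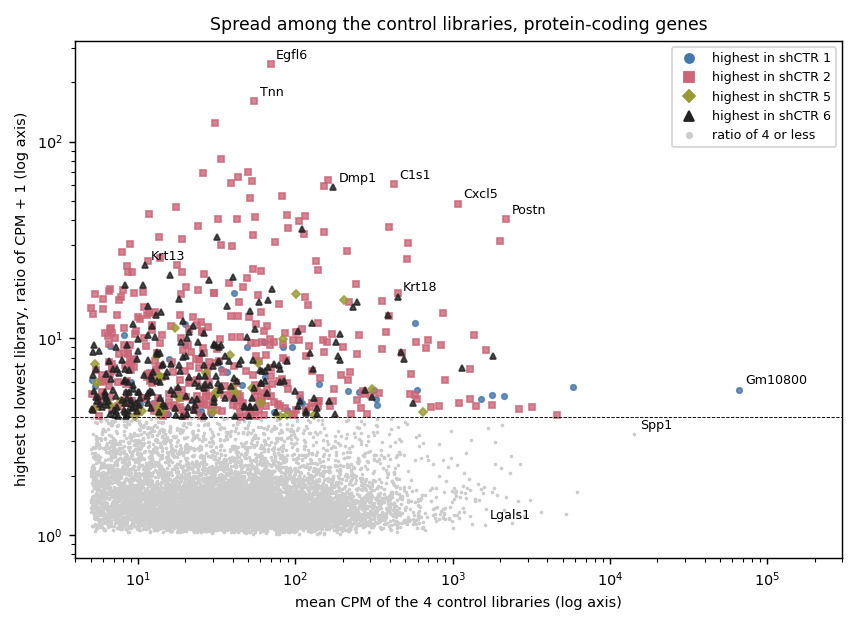
Ratio of the highest to the lowest control library (CPM + 1, log axis) against mean CPM (log axis) for the 10807 protein-coding genes whose mean was 5 CPM or more. Coloured points are the 687 genes with a ratio over 4, by the library in which they were highest, and most of the largest ratios belong to shCTR 2.

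Most of the genes with the largest ratios were high in shCTR 2, and many of them encode secreted or matrix proteins. Egfl6, an EGF-like matrix protein, measured 2.93, 275, 1.28 and 0.115 CPM, a ratio of 247. Tnn, tenascin N, measured 12.2, 205, 2.35 and 0.288 CPM, and Cxcl13, a B cell chemokine, 0, 123, 0.392 and 1.32 CPM. For Cxcl13 the library shCTR 1 had no count, whereas shCTR 2 lay over 100 CPM. The next by ratio were Spon1, an axon-guiding matrix protein, Dpt, dermatopontin of dermal matrix, and the protease inhibitor A2m, with 127, 186 and 100.4 CPM in shCTR 2 and under 10 CPM in every other library. Acute-phase and complement genes also belonged to this set, as for Serpina3n with 45.1, 531, 27.4 and 7.95 CPM and C1s1, a complement protease, with 226, 1345, 98.8 and 21.1 CPM. Serpina3g, Il13ra2 and Pappa2 were likewise highest in shCTR 2 and under 3 CPM in shCTR 6. Chil1, a chitinase-like secreted protein, measured 10.8, 609, 8.58 and 12.6 CPM and Gpc3, a glypican, 2.77, 194, 5.13 and 3.74 CPM, and for both the other 3 libraries lay close together. Of the 15 genes with the largest ratios Dmp1 was the only one highest in shCTR 6.

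For each library, the genes in which it lay farthest above or below the median of the other 3 were listed. In shCTR 6, Ifit1bl1, an interferon-induced gene, measured 4.39, 2.5, 6.51 and 114 CPM, Sema7a, a membrane semaphorin, 43, 62.1, 187 and 639 CPM, and Chrna1, the muscle-type nicotinic receptor subunit, 2.85, 0.902, 5.02 and 34.6 CPM. In shCTR 2, Nptx1, a neuronal pentraxin, was low at 74.5, 22.5, 366 and 352 CPM, as were Wnt7b, an epithelial Wnt ligand (24.9, 3.66, 51 and 66.9 CPM), and E2f8, a cell cycle repressor (8.55, 1.75, 30.04 and 28.9 CPM). Nptx1 was close in shCTR 5 and 6 and far lower in shCTR 1. In shCTR 1, Grp, gastrin-releasing peptide, was high at 55.1, 13.3, 5.05 and 5.76 CPM and Adh1, an alcohol and retinol dehydrogenase, at 51.7, 17.2, 7.12 and 3.46 CPM. Ugt2a2, a glucuronosyltransferase of the olfactory mucosa, measured 145, 14.2, 65.6 and 28 CPM, again highest in shCTR 1. Vegfd, a lymphatic growth factor, and Epha3, an ephrin receptor, were on the list of shCTR 1 but higher still in shCTR 2, at 38.3, 165, 6.51 and 6.36 CPM and 156, 245, 34.7 and 29.2 CPM. Lowest in shCTR 1 were Brinp1, at 1.39, 31.2, 3.84 and 10.9 CPM, Adcy8, an adenylyl cyclase, at 0.99, 2.65, 8.93 and 9.07 CPM, and Angptl7, at 20.6, 317, 44.5 and 97.8 CPM. In shCTR 5, Gpr149, an orphan receptor, was high at 6.18, 4.96, 36.3 and 7.52 CPM, and Thy1, a surface glycoprotein of fibroblasts, low at 69.3, 258, 6.12 and 28.6 CPM. Epyc, a small proteoglycan of cartilage, was also lowest in shCTR 5, at 63.9, 311, 6.87 and 38.9 CPM. Igfbp5, an IGF-binding protein, paired the libraries differently, with 25.9, 122, 16.5 and 118 CPM, high in shCTR 2 and 6, and so did Pi15, a protease inhibitor, with 7.17, 113, 6.44 and 48.1 CPM. Lars2, the mitochondrial leucyl-tRNA synthetase, measured 45.9, 51.9, 5.87 and 27.2 CPM. Clic5 and Igf2bp3 were higher in shCTR 5 and 6 than in shCTR 1 and 2, at 2.53, 2.05, 13.1 and 9.1 CPM and 3.17, 3.01, 12.8 and 13.5 CPM.

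At the other end, 10 genes varied by at most 1.35% (coefficient of variation of CPM) among those averaging 20 CPM or more. Zdhhc20, a palmitoyltransferase, measured 152, 152, 154 and 152 CPM and Rab5c, an early endosome GTPase, 191, 193, 192 and 195 CPM. Others were Grk2, a receptor kinase, at 53.6 ± 0.348 CPM, Bud31, a splicing factor, at 79.3 ± 0.587 CPM, and Cops6, a COP9 signalosome subunit, at 65.3 ± 0.667 CPM. Smim7, Llgl1, Ube2r2, Nfu1 and Slc35f6 complete this set. The coefficient of variation was 0.622% for Zdhhc20 and 0.963% for Nfu1, under the 1.56 and 3.54% that counting alone gives on average at their depth, as extremes picked from many genes can be.

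Epithelial and fibroblast genes ran in opposite directions between shCTR 2 and the other libraries. Fibroblast markers summed to 18715, 42966, 14106 and 13172 CPM, and general epithelial genes to 1295, 185, 1289 and 2239 CPM. Matrix genes followed the fibroblast markers, with 31 of 37 highest in shCTR 2, against 992 of the 2199 genes with a ratio over 2. The lists are not independent: Col1a1, Col1a2, Col3a1, Fn1, Mmp2, Dcn, Lum and Postn belong to both. Among the exceptions were Tnc, tenascin C, with 313, 113, 495 and 968 CPM, Timp2 with 904, 774, 1184 and 2033 CPM and the plasminogen activator Plau with 81, 50.04, 199 and 414 CPM, all highest in shCTR 6. Col12a1, a fibril-associated collagen, and Thbs2, thrombospondin 2, resembled Postn: they measured 1949.7, 4659, 1271 and 148 CPM and 1061, 1569.7, 689 and 254 CPM, lowest in shCTR 6. Eln, elastin, measured 3.56, 31.6, 0.498 and 1.32 CPM, high in shCTR 2. The difference between shCTR 2 and the other libraries was not of 1 size for all fibroblast genes: Vim, at 3054, 2445, 2863 and 2938 CPM, and Twist2, at 6.26, 10.7, 7.97 and 9.33 CPM, differed little, while Lum, the proteoglycan lumican, measured 539, 2500.4, 185 and 235 CPM and Dpt 4.32, 186, 1.67 and 9.21 CPM.

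**Figure D5:**
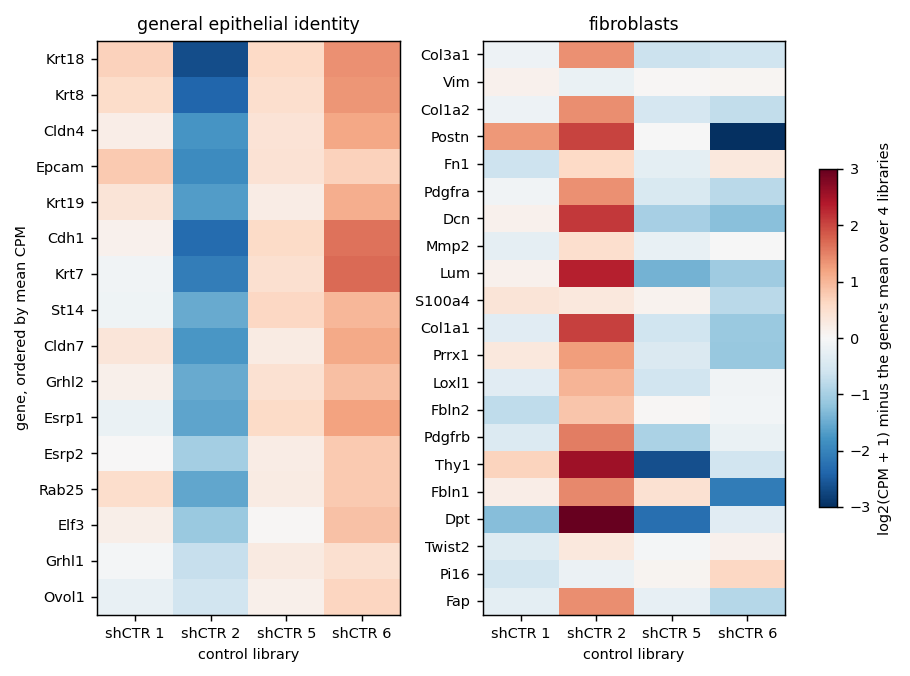
Log2(CPM + 1) in each control library, as the difference from the gene's mean over the 4 libraries, for the 16 general epithelial genes and the 21 fibroblast markers with a mean of at least 1 CPM. Colours are limited to differences of 3, which Dpt and Postn pass. All epithelial genes are lowest in shCTR 2, most fibroblast markers are highest there, and Vim and Twist2 differ little.

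Promoter sequences are shown for 4 of these epithelial genes, since they were lowest together in shCTR 2, and for Spp1, the leading messenger RNA. Each is the 250 bases before a RefSeq transcription start (GRCm38.p6). For the epithelial genes capitals mark CACCTG or its reverse complement CAGGTG, a form of the E-box, the element that the Zeb and Snail repressors are known to bind. For Spp1 they mark ACCACA (reverse complement TGTGGT), the core of the site that RUNX factors bind. The Spp1 window was kept because it holds these letters, so its match was fixed in advance. The Spp1 window also holds the E-box letters, left in lower case.
Krt18, chr15:102027966-102028215, plus strand: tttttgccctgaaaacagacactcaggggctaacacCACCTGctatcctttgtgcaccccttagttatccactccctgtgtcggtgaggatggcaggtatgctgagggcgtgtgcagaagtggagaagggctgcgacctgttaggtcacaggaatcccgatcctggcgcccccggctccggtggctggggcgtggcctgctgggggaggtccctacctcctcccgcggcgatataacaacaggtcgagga
Krt8, chr15:102004343-102004592, minus strand: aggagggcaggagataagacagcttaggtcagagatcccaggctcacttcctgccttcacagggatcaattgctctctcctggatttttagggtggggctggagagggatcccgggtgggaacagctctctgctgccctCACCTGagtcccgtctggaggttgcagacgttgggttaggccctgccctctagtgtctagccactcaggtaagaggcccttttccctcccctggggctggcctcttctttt
Cldn4, chr5:134946935-134947184, minus strand: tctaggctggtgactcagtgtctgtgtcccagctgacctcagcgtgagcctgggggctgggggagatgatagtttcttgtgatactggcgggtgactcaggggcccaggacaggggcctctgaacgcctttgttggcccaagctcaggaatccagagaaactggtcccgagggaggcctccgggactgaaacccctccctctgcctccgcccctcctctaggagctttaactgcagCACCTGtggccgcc
Epcam, chr17:87635729-87635978, plus strand: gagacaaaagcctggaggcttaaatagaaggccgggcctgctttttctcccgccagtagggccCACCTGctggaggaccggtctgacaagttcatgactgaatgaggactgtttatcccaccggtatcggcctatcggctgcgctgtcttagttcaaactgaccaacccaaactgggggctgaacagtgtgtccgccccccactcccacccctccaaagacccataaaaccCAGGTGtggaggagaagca
Spp1, chr5:104434861-104435110, plus strand: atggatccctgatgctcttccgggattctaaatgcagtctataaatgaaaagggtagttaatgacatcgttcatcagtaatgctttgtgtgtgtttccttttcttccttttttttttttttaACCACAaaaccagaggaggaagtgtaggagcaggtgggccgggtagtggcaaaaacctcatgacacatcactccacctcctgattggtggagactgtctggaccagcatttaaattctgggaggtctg
Of the 16 general epithelial genes 9 had an entry in the RefSeq promoter table, and 8 of these held the E-box letters on either strand (88.9%). Over all 27025 genes of the table the share was 19.4%. The RUNX letters occurred in 15.9% of them. The motifs and the genes shown were chosen after the levels were known, and the genes of the table were not matched to them by kind of promoter. A match of letters is a description only, and binding by any factor was not tested. Runx1 measured 117, 133, 86 and 78.8 CPM and Runx2 19.1, 20.2, 10.04 and 13.8 CPM, both lower in shCTR 5 and 6 than in shCTR 1 and 2.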

How the data were processed

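Total RNA libraries (TruSeq Stranded Total RNA, from 500 ng per the labels) were mapped to mm10, and the submitters' processing notes name bcl2fastq 2.17, Trim Galore 0.4.3 and STAR 2.5.0a. The values used are the deposited counts of reads per gene on the reverse strand, not normalized by the authors. Forward and unstranded counts served as background and as an alternative. Rows that name no gene held 9.83 to 21.7% of reads as unmapped, 17.8 to 22.1% as multimapping and 20.4 to 23.6% as outside genes, and were left out. Of 41091 identifiers 40217 matched GENCODE M21 (GRCm38), the source of symbols, coordinates and exon lengths. Libraries were scaled with edgeR 4.0.16 (TMM over all 10 libraries, after filterByExpr with a minimum count of 10), and spread was estimated from the 4 control libraries alone with an intercept-only design and tested on simulated data. Gene counts of 22763014 to 35414943 limit precision by counting error only. Mitochondrially encoded genes were not analysed here, and some defining markers are not reported here. No groups were compared and no p-value is given. No pair of control libraries agreed within sampling noise (chi-square of counts), so none is a repeat of the counts of another. This cannot show whether the libraries came from separate animals or dishes. Each was counted as 1 sample.

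Genes were named by these rules: the 20 protein-coding and 5 other entries with the highest levels, defining and leading members of each list, the 15 largest ratios, the 10 smallest coefficients of variation and the 5 farthest above and below in each library. Further list members were named after their values were seen. The members, lists and rules were chosen with earlier results of these data known. Alternatives changed the scaling, the strand, the filters, the added CPM, the gene length, the dispersion tool (DESeq2 1.42.0) and the libraries.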

Additional observations from a re-analysis of the deposited data

Results flagged for a closer look

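Among 247 genes and 35 list sums, 21 had a library whose gap to the nearest other took up more of the whole range than Dixon's 95% critical value allows, on log2(CPM + 1). Chance flags about 1 in 20 groups of 4, or 14.1 here, but that rate does not hold for genes named because a library stood apart or because their spread was small, such as A2m, Chil1, Gpc3 and Zdhhc20, and the genes are not independent. No explanation was tested for any of them.

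The library shCTR 2 stood apart most often. It was far above the others for A2m (100.4 CPM), Chil1 (609 CPM), Gpc3 (194 CPM), Calr (1397 CPM), Ebf1 (77.2 CPM), Foxf1 (11.2 CPM) and Gata3 (10.7 CPM), the last 3 being transcription factor genes. It was far below them for Epcam (13.3 CPM), Otx2 (1.55 CPM), Six4 (47.4 CPM) and Trp53inp1 (545 CPM).

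In shCTR 6 the MHC class I genes B2m (1572 CPM) and H2-K1 (491 CPM) were far below the others, and the hemidesmosome gene Col17a1 (19.7 CPM) far above. Bpifb9b (0.0576 CPM) and Scgb1a1 (0.0288 CPM) had counts in shCTR 6 alone and Obp2a (0.0396 CPM) in shCTR 1 alone, at levels under those that a count of 0 allows. In shCTR 5 Ric8b (36 CPM) and Zdhhc20 (154 CPM) lay above the others by small amounts, and the striated muscle list had its lowest sum (2.99 CPM). Rsad2 was far lower in shCTR 1 (12.3 CPM) than elsewhere.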

How the results depend on the processing

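The count of genes with a highest to lowest ratio over 4 changed most. It was 435 with 5 CPM added, 400 at a mean of at least 20 CPM, and 179 to 653 when 1 library was left out. Without shCTR 1 and 2, an alternative chosen after seeing the data, it was 63, from fewer libraries. The common coefficient of variation was 0.239 without those 2 libraries and 0.266 to 0.379 with 1 left out. The median gene-wise value was 0.492 with no filter on low counts, 0.227 with DESeq2, 0.221 without shCTR 1 and 2 and 0.231 to 0.317 with 1 left out, against 0.272 as estimated; beyond fewer libraries or other genes, the cause was not tested. Under the alternatives that keep all 4 libraries, 123 of 1473 gene levels moved by 1 SD or more, 43 of them with unstranded counts, as did 19 of 210 list sums, and 3 of 210 counts of detected list members changed by over 1.5 times. Leaving out libraries cannot move a mean of 4 by 1 SD, so it is no check of these levels. No paired analysis was possible because the results come from no test and there is 1 group. Depth limits values near 1 CPM: a count of 0 allows 0.119, 0.15, 0.107 and 0.0864 CPM in shCTR 1, 2, 5 and 6.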
